A study of Mus musculus with 38 samples.

Results

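The RNA of mouse CD4 T cells that lack STAT4 was compared between cells given a retrovirus that carries T-bet and cells given the control retrovirus, both grown under Th1 conditions. The comparison rests on 1 library a side. It was taken over the genes with at least 3 FPKM (fragments per kilobase of transcript, scaled to the mapped fragments of the library) in either library. Of 23700 gene entries, 8577 met this rule, and 8567 remained after 10 entries whose estimate was marked as failed were left out. The series holds 38 samples, of which 14 are RNA libraries.

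T helper 1 (Th1) cells make interferon gamma and help macrophages kill intracellular microbes. IL-12 binds its receptor and activates STAT4, a transcription factor that promotes Ifng and the gene of T-bet, Tbx21. T-bet is a T-box transcription factor that defines the lineage and itself binds at Ifng and at chemokine and chemokine receptor genes. The question addressed by giving T-bet to STAT4-deficient cells is whether ectopic T-bet restores the RNA of genes that are low without STAT4.

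Naive CD4 T cells were sorted from spleen and lymph nodes of C57BL/6J mice with the STAT4<tm1> knockout allele (STAT4 KO) and, for comparison, of wild-type (WT) mice. Cells were activated with antibodies to CD3 and CD28 and with anti-IL-4 for 16 h before they were infected. The control virus carried a truncated human NGFR surface marker, and the T-bet virus carried T-bet cDNA and the same marker. Cells then spent 2 days in medium with 10 ng/mL IL-12 and anti-IL-4, and 3 further days with IL-12 and with IL-2 at 50 U/mL. The labels give both 5 and 7 days of culture and a restimulation of 2 h through CD3 and CD28 with IL-12. Both STAT4 KO vector libraries, and both WT vector libraries, therefore had IL-12 in the medium. The no-vector Th1 libraries used below have no virus step in their labels, which give 7 days of culture. The tests also use Th2 libraries of WT and STAT6 KO cells, without a vector, with the control vector or with a GATA3 vector. The sources used here do not say whether infected cells were purified, so each value may be an average over cells with and without the virus, and fewer cells with a transcript cannot be told apart from less transcript per cell.

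Fragments in genes, in units of 1e6, were estimated at 24.3 and 24.4 for the 2 STAT4 KO libraries from the intervals that Cufflinks lists around each value. These intervals cover counting error only. The 2 WT vector libraries had 26.4 and 24.4 in the same unit. The T cell genes Cd3e (128 FPKM with the control vector, 144 with T-bet), Cd3g (116 and 132) and Cd4 (95.7 and 82.6) were present in both. Markers of other cells were low. The 9 natural killer (NK) cell markers summed to 1.20 FPKM with the control vector and 2.67 with T-bet, the 14 myeloid markers to 4.27 and 3.47, and the 8 B cell markers to 10.2 and 7.59. The 2 CD8 T cell markers summed to 3.17 and 2.17, most of it Cd8b1 (3.08 and 2.16). Small RNA genes (microRNAs, small nucleolar RNAs and the like) took 5.07% of all FPKM with the control vector and 7.68% with T-bet. WT Th1 replicate 2 and T-bet KO Th1, both without a vector, stood apart at 21.0% and 22.4%, against 4.45% to 7.68% in the other 12 libraries. They are used below only in 1 alternative fit, in 1 alternative choice of STAT4-dependent genes and for the values of a few genes.

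Tbx21 stood at 35.1 FPKM in STAT4 KO cells with the control vector and at 137 with the T-bet vector. In WT cells the values were 61.0 and 245. The vector's own T-bet transcript counts towards these values, so they check the label and do not give the level of the cell's own gene. STAT4 KO cells with the vector had 225% of the Tbx21 RNA of WT cells with the control vector. Over both genotypes the T-bet vector term for Tbx21 was 1.96 on the log2(FPKM + 1) scale (SE 0.14, adjusted p = 0.0312 by limma). It was the 1 gene called of 10775 tested in that fit (0.00928%), and 288 genes (2.67%) had an unadjusted p under 0.05. Its adjusted p lay between 0.0167 and 0.7 over 21 other settings and was under 0.05 in 8 of them. Of the 12 libraries left out in turn, only the removal of WT Th2 GATA3 vector or of STAT6 KO Th2 GATA3 vector kept the call. Stat4 itself was at 7.57 FPKM with the control vector and 6.71 with T-bet, against 41.0 and 37.1 in WT cells. Stat4 RNA of the knockout was thus below WT with either vector; the sources do not say which part of the gene the allele lacks.

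The promoters of 4 genes among those with the largest increases are shown first, because 3 of them hold the T-box half-site and 2 the spaced STAT site that were searched for. The windows are the 250 bases before the transcription start in RefSeq's promoter table for GRCm38, placed on mm9 by exact match of the sequence. They are written 5′ to 3′ on the strand of the gene, with the matches in capitals. GGTGTGA, or its reverse complement TCACACC, is the T-box half-site. TTCNNNGAA is the STAT site.
Nkg7, chr7:50692258-50692507, plus strand: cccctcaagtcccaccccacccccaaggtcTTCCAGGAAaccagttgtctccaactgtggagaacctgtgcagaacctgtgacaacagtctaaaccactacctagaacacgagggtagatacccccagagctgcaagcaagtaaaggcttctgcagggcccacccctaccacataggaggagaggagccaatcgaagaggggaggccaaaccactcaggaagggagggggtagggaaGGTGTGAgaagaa
Xcl1, chr1:166865654-166865903, minus strand: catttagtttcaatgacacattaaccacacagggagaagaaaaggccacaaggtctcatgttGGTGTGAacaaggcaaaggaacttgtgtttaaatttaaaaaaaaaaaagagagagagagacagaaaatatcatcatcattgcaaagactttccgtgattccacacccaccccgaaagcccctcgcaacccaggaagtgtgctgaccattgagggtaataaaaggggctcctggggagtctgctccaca
Samd3, chr10:25949263-25949512, plus strand: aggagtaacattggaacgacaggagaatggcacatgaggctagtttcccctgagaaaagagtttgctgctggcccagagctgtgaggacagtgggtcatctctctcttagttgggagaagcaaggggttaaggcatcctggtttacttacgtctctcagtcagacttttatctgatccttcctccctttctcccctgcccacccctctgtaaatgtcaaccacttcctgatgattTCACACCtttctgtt
Ifng, chr10:117877852-117878101, plus strand: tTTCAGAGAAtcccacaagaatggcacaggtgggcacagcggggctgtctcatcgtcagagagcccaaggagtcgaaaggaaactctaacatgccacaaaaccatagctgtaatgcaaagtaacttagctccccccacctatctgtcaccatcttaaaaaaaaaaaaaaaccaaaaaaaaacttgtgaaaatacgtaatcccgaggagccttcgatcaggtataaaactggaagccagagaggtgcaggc
The half-site of Nkg7 lay 13 to 7 bases before the start, that of Samd3 15 to 9 bases before it on the opposite strand, and that of Xcl1 188 to 182 bases before it. The STAT site of Ifng lay 249 to 241 bases and that of Nkg7 220 to 212 bases before the start. Both motifs were searched on both strands of the 300 bases from 250 before to 50 after the start. GGTGTGA was in 3.98% of all 32851 RefSeq promoters and TTCNNNGAA in 8.30%. Of the 15 genes with the largest increases, 10 were in the table, and those without an entry included Crtam, Ccl4, Ctsw and Ccl5. Ccl3, Ccl9, Ccr2, Ly6c2 and Btg3 held neither motif in this window, and Cldnd2 held a STAT site.

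Large differences with ectopic T-bet were limited to a small share of the members. A gene counted as 2-fold higher or lower where log2(FPKM + 1) differed by at least 1, which understates the ratio of low genes. At least 2-fold higher were 60 genes (0.7% of members), and at least 2-fold lower were 99 (1.16%), so that 159 (1.86%) passed this size in either direction and 98.1% of members stayed within it. The higher group reached further: 28 genes were at least 4-fold and 18 at least 8-fold higher, against 9 and 7 lower. Small RNA genes, most of them listed at 0 in 1 library and with overlapping intervals, made up 17 of the 60 and 8 of the 99. Without them 17 genes were at least 4-fold and 7 at least 8-fold higher, and 3 were at least 4-fold lower: Pdlim4, Gbp11 and Gm12238, the last listed at 0 with T-bet and chosen for this count after its value was seen. The median difference over all members was −0.0030 on the log2 scale and its SD across genes was 0.42. Cufflinks intervals of the 2 libraries did not overlap for 43 of the 60 higher and 89 of the 99 lower genes. Such intervals were common, with 19.1% of members higher and 22.7% lower without overlap, and they cover no variation between cultures. The rule admits a gene through either library. Of the 60 higher genes 30 were under 3 FPKM with the control vector, and of the 99 lower genes 33 were under 3 FPKM with T-bet, and such genes had to differ to be members. Members within 5% above the 3 FPKM limit (85 genes) had a median difference of −0.11, and the 90 genes within 5% below it had 0.0011.

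**Figure D1:**
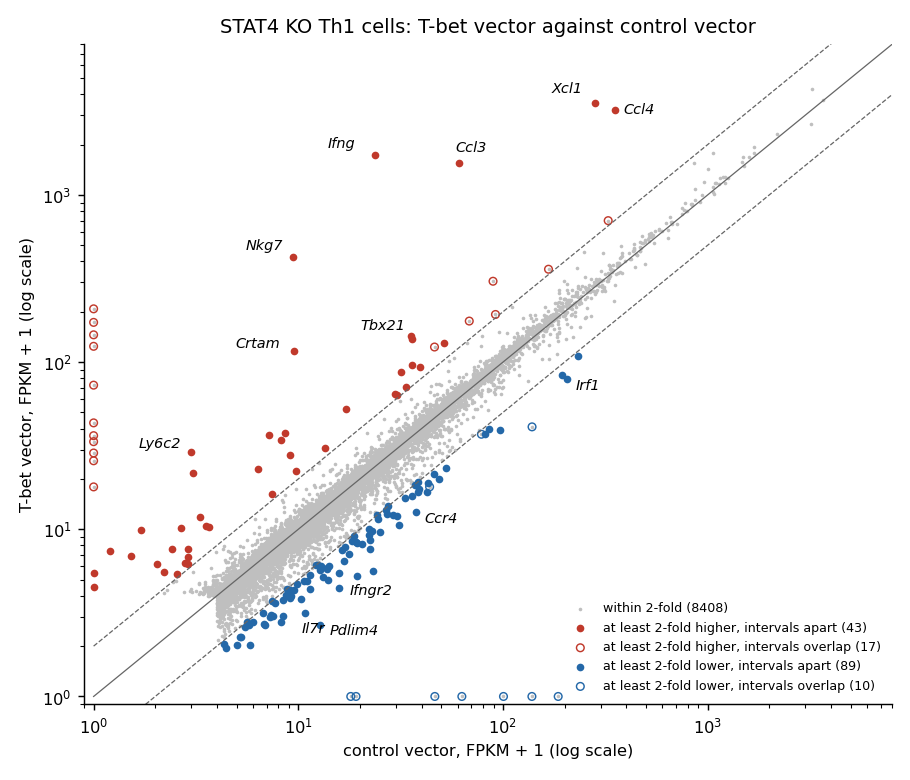
Level of each of the 8567 members in STAT4 KO Th1 cells, as FPKM + 1 on log axes, with the control vector (x) and the T-bet vector (y). Dashed lines mark 2-fold; filled points are the 43 higher and 89 lower genes with intervals apart, open points the 17 and 10 with overlapping intervals, and Ifng, Nkg7, Ccl3, Xcl1 and Crtam lie farthest above the diagonal among the filled points.

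Only 1 gene passed the test across all genes in this pair. Ifng rose from 22.6 FPKM (Cufflinks interval 21.0 to 24.2) to 1739 (1725 to 1753), a ratio of 76.9 with bounds of 71.3 and 83.4 from these intervals. On the log2 scale the increase was 6.20 (SE 0.23, adjusted p = 0.0407 by limma). That is 1 of 10775 genes tested (0.00928%), and 332 (3.08%) had an unadjusted p under 0.05. With 1 library a side the spread in this fit comes from the Th2 libraries, where Ifng was between 0.945 and 135 FPKM. Its adjusted p lay between 0.0153 and 0.687 over 17 other settings and was under 0.05 in 11 of them. Without WT Th2 control vector it was 0.227, and without STAT6 KO Th2 control vector 0.165. The test is thus a comparison of 2 libraries with a borrowed spread, and the other genes below are described by their values.

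Ifng is the signature cytokine of Th1 cells. In WT cells it was at 4074 FPKM with the control vector and 5199 with T-bet. STAT4 KO cells thus went from 0.555% of the WT control level to 42.7% of it. Among the other 21 cytokine members none was 2-fold higher. Tnf, an inflammatory cytokine made by Th1 and other cells, was at 378 and 495 FPKM, and Il2, the T cell growth factor, at 2173 and 2301. Csf2, which encodes GM-CSF, was at 26.9 and 37.9 against 204 in WT with the control vector. At least 2-fold lower were 2 cytokines: Il4, the Th2 cytokine (12.9 to 4.80 FPKM), and Csf1, the macrophage growth factor (7.40 to 2.01).

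Several chemokine genes were also higher. Xcl1, which encodes lymphotactin, went from 281 to 3531 FPKM and was the most abundant of the higher genes, at 1113% of its WT control vector level of 317. Ccl3 (MIP-1 alpha) was at 59.7 and 1559, with 460 and 1245 in WT. Its difference of 4.68 (SE 0.23) had an adjusted p = 0.0702 by limma and missed the threshold. Ccl4 (MIP-1 beta) was at 350 and 3213, Ccl5 (RANTES) at 7.62 and 36.8, and Ccl9 at 0.699 and 8.87. All 3 of Ccl3, Ccl4 and Xcl1 were higher in STAT4 KO cells with T-bet than in either WT library. Of the 17 members of the chemokine and chemokine receptor list 9 were at least 2-fold higher and 1 lower, against 0.7% and 1.16% of all members, with a median of 1.13.

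Receptors of inflammatory homing were also higher. Cxcr6, the receptor of a membrane-bound chemokine, was at 5.36 and 22.0 FPKM, against 70.1 and 65.8 in WT. Ccr2, the receptor of monocyte chemoattractants, was at 0.529 and 5.95, against 7.31 and 46.4. Cxcr3, the receptor of interferon-induced chemokines and a Th1 marker, was at 28.6 and 63.8, against 35.5 and 29.2. Cxcr6 and Ccr2 with the T-bet vector remained below the WT control vector library, and Cxcr3 lay above it. The 1 member of the list that was 2-fold lower was Ccr4, a Th2-associated receptor (36.4 to 11.7 FPKM).

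Several cytotoxic lymphocyte genes were higher as well. Nkg7, a granule membrane protein of cytotoxic cells, had the next largest difference after Ifng among genes with intervals apart. It went from 8.41 to 422 FPKM, which is 50.2 times the control value and close to the WT T-bet library (158 and 436 in WT). Crtam, an adhesion receptor of activated cytotoxic cells, was at 8.49 and 115, Ctsw (cathepsin W) at 6.19 and 35.4, and Serpinb6b and Serpinb9, protease inhibitors that include an inhibitor of granzyme B, at 34.4 and 143 and at 30.6 and 85.8. Gzma, a granzyme, was at 1.05 and 5.20, whereas in WT cells it was at 2.09 and 97.4. Gzmb, the granzyme with the highest level here, was at 34.7 and 59.4 against 395 in WT with the control vector. Of 12 members of this list 6 were at least 2-fold higher and none lower, against 0.7% and 1.16% of all members, with a median of 1.11. Another 11 listed genes were not members, among them Prf1, perforin, at 0.318 and 1.11 FPKM. NK cells express several of these genes. The NK marker sum of 1.20 FPKM with the control vector and 2.67 with T-bet consisted largely of Eomes (0.944 and 2.59). The defining markers Ncr1 and Klrb1c were at 0.0223 and 0.0463 FPKM with the control vector and listed at 0 with T-bet, and 6 of the 9 NK markers were at 0 with T-bet and 4 with the control vector. The part of NK cells or CD8 T cells in the values of this list was not tested.

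Of the 27 members of the Th1 effector list, which shares genes with the lists above, 13 were at least 2-fold higher and 1 lower, and 13 lay within 2-fold, with a median of 0.68. For comparison, 0.7% of all members were 2-fold higher and their median was −0.0030. Besides the genes already named, Ly6c2, a surface antigen of effector cells, was at 1.99 and 28.2 FPKM, though its reads may be shared with Ly6c1. The signalling genes upstream did not all reach WT levels. Il12rb2, the inducible IL-12 receptor chain, was at 1.89 and 6.62 FPKM against 60.0 in WT with the control vector, so it stayed at 11.0% of that level with T-bet. Il18rap and Il18r1, the IL-18 receptor chains, were at 12.4 and 29.6 and at 23.4 and 35.0, against 46.2 and 96.5. Eomes, the related T-box factor, was at 0.944 and 2.59 and thus below the 3 FPKM limit. Runx3, a T-bet partner, was at 13.8 and 12.2 against 32.0. Plac8 was at 1.79 and 1.16 FPKM against 178 in WT with the control vector.

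**Figure D2:**
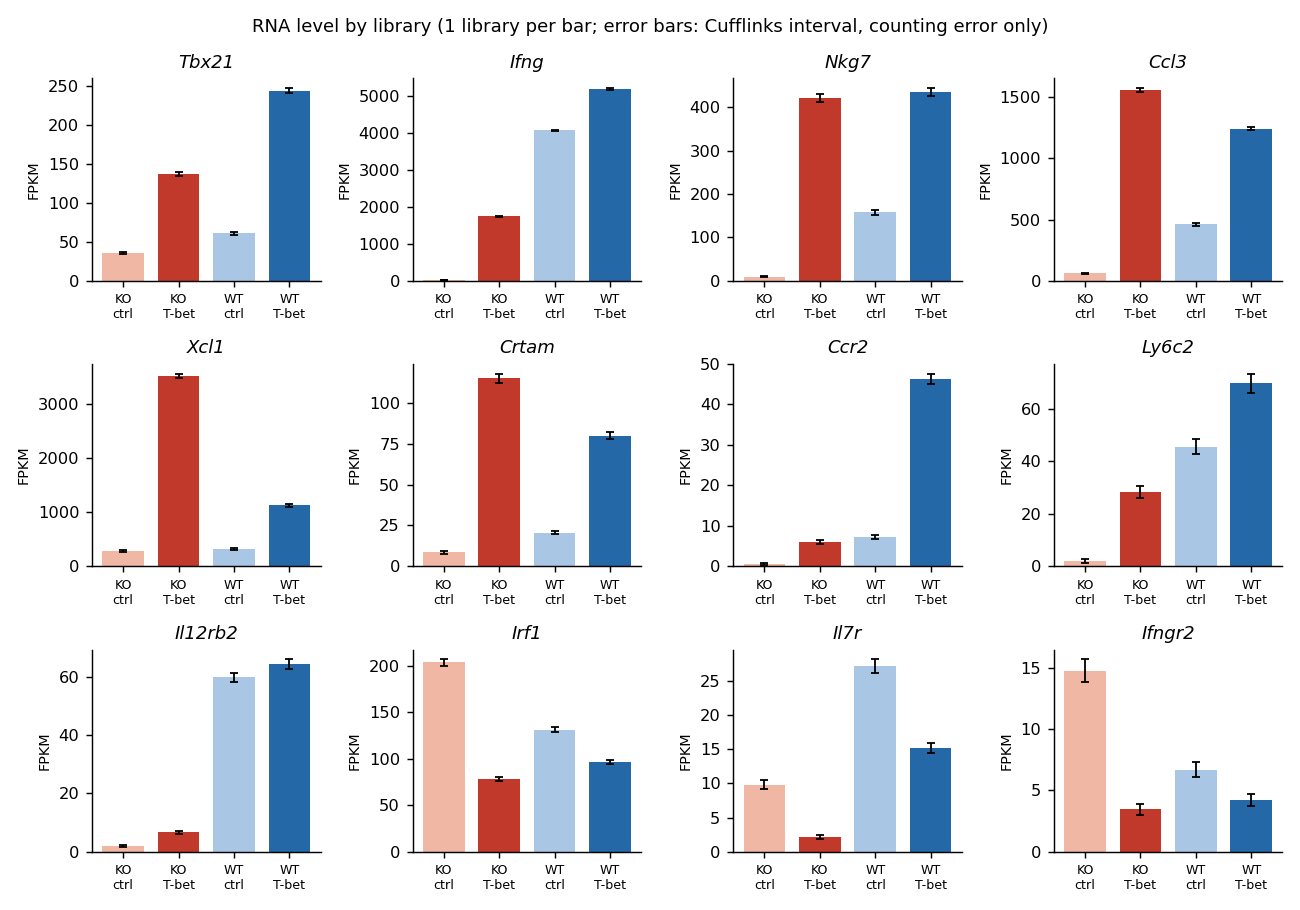
FPKM of 12 genes in the 4 vector libraries, STAT4 KO (KO) and WT, with control (ctrl) or T-bet vector; each bar is 1 library and the error bars are Cufflinks intervals. Nkg7, Ccl3, Xcl1 and Crtam reach or pass the WT control bar with T-bet, Ifng, Ccr2, Ly6c2 and Il12rb2 do not, and Irf1, Il7r and Ifngr2 are lower with T-bet.

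The lower genes included members of the interferon response and of the naive and memory T cell lists. All 22 interferon response members had a negative difference, of which 5 were at least 2-fold lower (1.16% of all members were) and 21 had intervals apart, with a median of −0.79. Over all members 50.7% were negative and 22.7% were lower with intervals apart. In WT cells 21 of the 22 were negative too, with a median of −0.24, where 58.4% of all members were negative. Irf1, a transcription factor induced by interferon gamma, was at 204 and 77.9 FPKM in STAT4 KO cells. The guanylate-binding protein gene Gbp4 was at 95.6 and 38.4, and the immunity-related GTPases Irgm2 and Igtp at 47.5 and 18.9 and at 231 and 108. Ifngr2, the second chain of the interferon gamma receptor, was at 14.8 and 3.47, and the first chain, Ifngr1, at 50.8 and 32.0. Ifng RNA was thus higher and RNA of its receptor chains and of typical interferon gamma targets lower in the same library. In WT cells with the control vector Irf1 was at 131 and Ifngr2 at 6.68, so the knockout's control library was above WT for both.

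Of 17 naive and memory members 16 had a negative difference and 7 were at least 2-fold lower, against 50.7% and 1.16% of all members, with a median of −0.86. Il7r, the IL-7 receptor chain that sustains resting T cells, was at 9.82 and 2.16 FPKM. Klf2, which maintains quiescence and lymph node homing, was at 21.2 and 8.26, and its target S1pr1 at 15.1 and 7.29. Tcf7 and Lef1, factors of naive and memory cells, were at 70.7 and 46.0 and at 29.0 and 16.9. Ccr7 was at 50.9 and 46.5. All 10 regulatory T cell members were negative (50.7% of all members were), with a median of −0.57. At least 2-fold lower were 2 of them (1.16% of all members were): Foxp3, the defining factor (10.5 and 4.34 FPKM), and Gpr83 (4.47 and 1.59). The 10 were all negative in WT cells as well, with a median of −0.29, where 58.4% of all members were negative.

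Of 12 STAT feedback members 11 were negative and 1 was at least 2-fold lower, against 50.7% and 1.16% of all members, with a median of −0.38. In WT cells 11 of the 12 were negative too, with a median of −0.25, where 58.4% of all members were negative. Socs3, an inhibitor of cytokine signalling, was 2-fold lower (14.8 and 4.51 FPKM), and Socs1 (75.2 and 38.3), Socs2 (30.0 and 15.6) and Bcl3 (31.3 and 15.8) came close to that size. Of the 15 Th2 effector members 3 were 2-fold lower (1.16% of all members were), Ccr4, Il4 and Ecm1 (26.2 and 11.3 FPKM). The 1 that was 2-fold higher (0.7% of all members were) was Il1rl1, the IL-33 receptor, at 1.68 and 9.18. Gata3, the Th2-defining factor, was at 25.8 and 21.3. Among the 15 lowest genes outside these lists were Pdlim4 (11.8 and 1.69), Txnip, a thioredoxin-interacting protein (21.4 and 6.64), and Tsc22d3, a glucocorticoid-induced leucine zipper protein (9.37 and 2.84). Gbp11 was at 22.2 and 4.66, though reads of the Gbp family may be shared between its members.

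**Figure D3:**
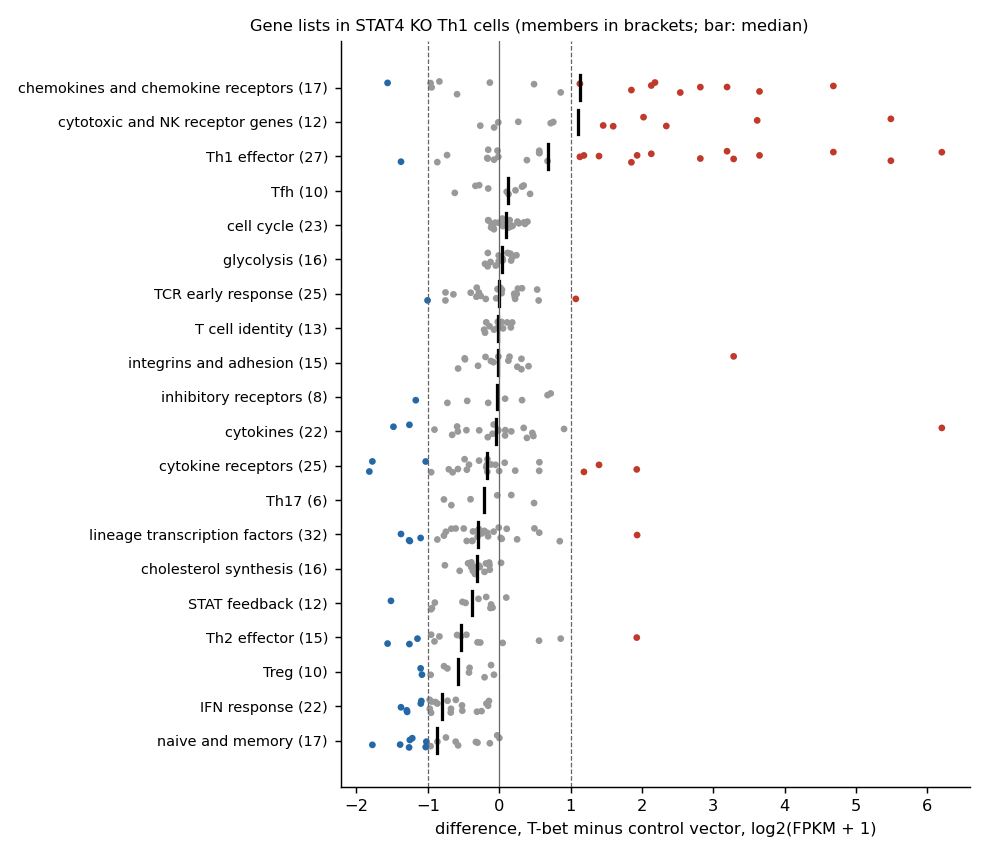
Difference between T-bet and control vector in STAT4 KO Th1 cells, log2(FPKM + 1), for each member (point) of the gene lists with at least 6 members; red and blue points are at least 2-fold higher or lower and black bars are medians. Medians run from −0.86 for naive and memory genes to 1.13 for chemokines and their receptors.

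Other lists showed little. All 23 cell cycle members, all 16 glycolysis members and all 13 T cell identity members stayed within 2-fold, with medians of 0.10, 0.041 and −0.011. Of 25 early response genes of T cell receptor stimulation 1 was 2-fold higher, Nr4a2 (32.7 and 70.0 FPKM), and 1 lower, Jun (23.3 and 11.1), with a median of 0.0045. Of the 16 cholesterol synthesis members 15 were negative (50.7% of all members were) and none 2-fold lower, with a median of −0.31. All 16 were negative in WT cells (58.4% of all members were), with a median of −0.20.

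Over the same genes, the same vector in WT cells, in 2 other libraries, gave fewer 2-fold differences. Over the 8559 members with an estimate there, 31 were at least 2-fold higher (0.362%) and 15 lower (0.175%), and the SD across genes was 0.27. The members were chosen by their level in the STAT4 KO pair. Genes under 3 FPKM in both STAT4 KO libraries are thus not counted, which favours the STAT4 KO pair in this comparison. Higher in both genotypes were 17 genes, 28.3% of the STAT4 KO genes and 54.8% of the WT genes. Among them were Nkg7, Ccl3, Ccl4, Xcl1, Crtam, Ccr2, Samd3 and Cldnd2. Lower in both were 3 genes, Il4, Id1 and Ccr4, which is 3.03% of the STAT4 KO and 20% of the WT genes. Of the 60 higher genes 40 had a positive difference in WT, and of the 99 lower genes 83 a negative one, where 58.4% of all members were negative in WT. Across genes the 2 differences had a Pearson correlation of 0.237 and a Spearman correlation of 0.335 over these members. Without small RNA genes and symbols at several loci (8456 genes) Pearson's was 0.383. The pairs share no library, and genes are not independent replicates.

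Ifng, Ly6c2, Ctsw and Ccl5 were 2-fold higher in STAT4 KO cells and not in WT cells, where their WT differences were 0.35, 0.60, 0.19 and −0.04. Their control libraries in WT were already at 4074, 45.5, 35.7 and 52.8 FPKM. For Gzma the WT difference was larger, 4.99 against 1.60. The difference between the genotypes was tested for every gene in the same fit, and none of 10775 was called (0%). The estimate of Ifng was 5.85 (SE 0.33, adjusted p = 0.126 by limma) and 116 genes (1.08%) had an unadjusted p under 0.05. With pseudocount 0.1 the count was 1, and with libraries left out in turn 0 to 3.

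**Figure D4:**
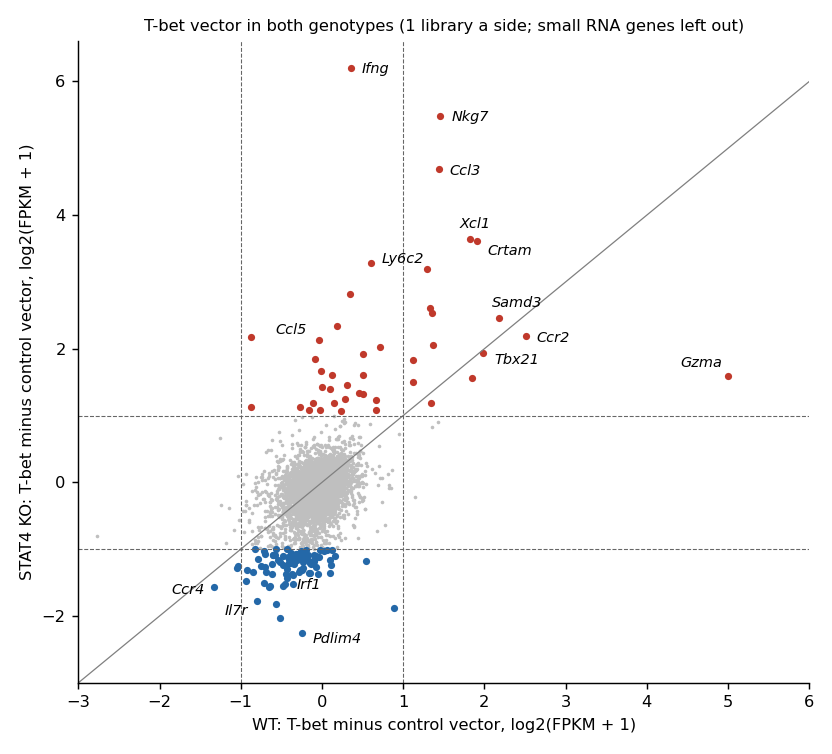
Difference between T-bet and control vector, log2(FPKM + 1), in WT (x) and STAT4 KO cells (y) for the members without small RNA genes; red and blue points are at least 2-fold higher or lower in STAT4 KO cells, dashed lines mark 2-fold, and 1 gene lies outside the axes. Ifng and Ly6c2 lie within 2-fold on the WT axis, Tbx21 lies on the diagonal and Gzma lies below it.

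Genes that depend on STAT4 were chosen in other libraries, as those at least 2-fold lower in the no-vector STAT4 KO Th1 library than in WT Th1 replicate 1, with intervals apart. Those libraries had no virus and are labelled with 7 days of culture, so they differ from the pair in culture as well. The choice gave 419 genes of 8568 (4.89%), of which 277 were members here. The other 142 were under 3 FPKM in both libraries of the pair or had a failed estimate. A STAT4-dependent gene under 3 FPKM with the control vector was a member only if it reached 3 FPKM with T-bet. The shares of 2-fold higher genes among the members can therefore be raised by the rule. With the T-bet vector 24 of the 277 were at least 2-fold higher (8.66%, against 0.7% of all members) and 8 lower (2.89%), and the median was −0.011. With the genes chosen against the mean of both WT Th1 replicates, the count was 27 of 551 (4.90%). Among the 24 were Ifng, Nkg7, Ccl3, Ccl4, Ccl5, Xcl1, Ccr2, Cxcr3, Cxcr6, Ctsw and Slamf7, and also Gp49a and Lilrb4, close paralogs whose reads may be shared. At least 2-fold lower in STAT4 KO cells with T-bet than in WT cells with the control vector were 115 of the 277, where 336 of all 8567 members were (3.92%). With control vectors on both sides 121 of the 277 were. The share of all members was not counted for that comparison, so 115 and 121 do not measure how many genes T-bet restored. Of the 52 that were 4-fold lower without a vector, 17 were 2-fold higher with T-bet (32.7%).

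Among the 20 STAT4-dependent members that were lowest without STAT4, 10 were at least 2-fold higher with T-bet, among them Ifng, Il1rl1, Nkg7, Ly6c2, Il12rb2, Ccl3, Cxcr6, Cldnd2 and Xcl1. Of the 10, 4 passed the WT control vector level (Nkg7 at 267%, Ccl3 at 339%, Cldnd2 at 219% and Xcl1 at 1113% of it). Xcl1 was already at 88.5% of that level in STAT4 KO cells with the control vector, so it was little lower without STAT4 in the vector cultures. Egln3, an oxygen-sensing prolyl hydroxylase, was at 11.9% of that level with T-bet, Dgat1, a triglyceride synthesis enzyme, at 12.1%, Csf2 at 18.6% and Tnfsf4, the OX40 ligand, at 19.9%. Csf1 went from 63.7% to 17.3%. Genes at least 2-fold higher in the no-vector STAT4 KO library (352, 4.11%) included 319 members, of which 28 were 2-fold lower with T-bet (8.78%, against 1.16% of all members) and 2 higher, Gzma and Cd24a. Irf1, Ifngr2, Il4, Klf2, Foxp3 and Pdlim4 were among the 28. This set rests on WT Th1 replicate 1 and was not chosen again against both replicates. Gzma was at 26.0 FPKM in the no-vector STAT4 KO library, 4.27 in replicate 1 and 23.3 in replicate 2. For Klf2 these values were 46.7, 14.2 and 37.5. Irf1, Ifngr2, Il4, Foxp3 and Pdlim4 were lower in both replicates than in the no-vector STAT4 KO library.

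**Figure D5:**
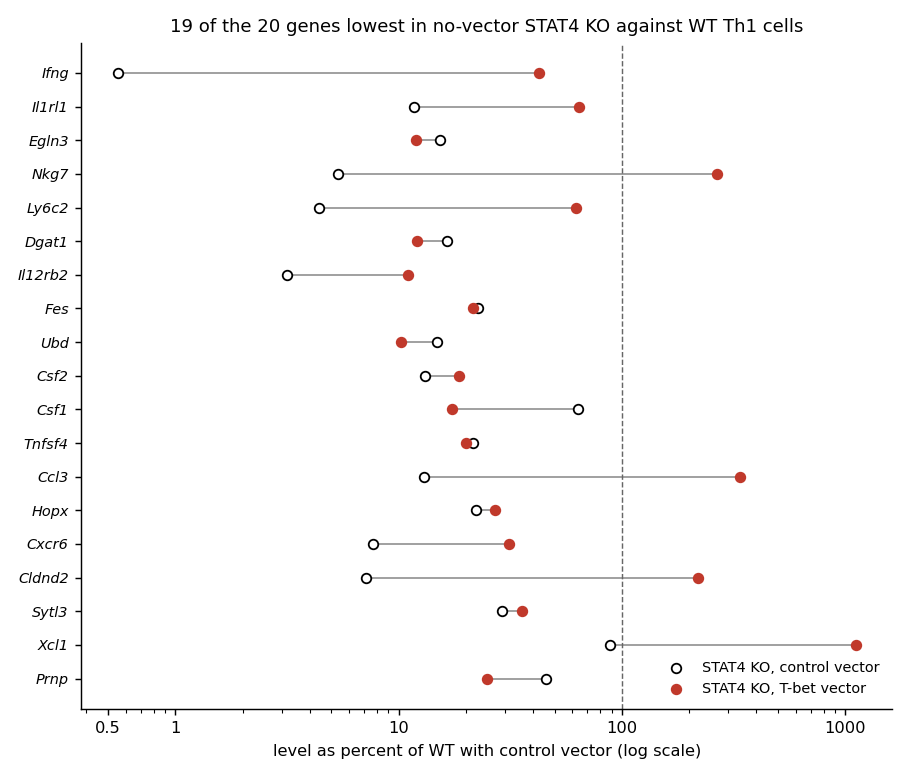
Level in STAT4 KO Th1 cells with the control vector (open) and the T-bet vector (red) as a percentage of WT with the control vector, on a log axis, for 19 of the 20 STAT4-dependent members lowest in the no-vector STAT4 KO library against WT. Ifng moves from 0.555% to 42.7%, Nkg7, Ccl3, Cldnd2 and Xcl1 pass 100%, and Egln3, Dgat1 and Fes stay near their control vector level.

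GGTGTGA lay in the promoter window of 5 of the 31 genes with an entry among those 2-fold higher (16.1%), in 3 of 65 among those lower (4.62%) and in 3.95% of the 6153 members with an entry. TTCNNNGAA lay in 6 of the 31 (19.4%), 15 of the 65 (23.1%) and 8.45%. These shares are descriptions of short windows at the start, and distal elements were not searched.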

How the data were processed

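RNA was measured in 14 libraries in 13 groups, 12 of them with 1 library. Per the labels' protocols, total RNA was made into TruSeq libraries and sequenced as single reads of 100 cycles. Per the submitters' processing notes, TopHat, Cufflinks and SICER were the tools and mm9 the build; neither a version nor an annotation is named there. The deposited values are FPKM, a Cufflinks output of the authors, per the file headers.

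Differences were taken on log2(FPKM + 1), which understates the change of low genes. Fragments were estimated from the width of the Cufflinks interval, and intervals cover counting error only. Nothing says that libraries came from separate animals, and the p-values do not measure variation between animals or between repeated cultures. For the pair and the difference between genotypes, the spread is departure from additive effects of STAT6 KO, vector culture and GATA3 vector in Th2 libraries. For the term over both genotypes it also holds such departures in Th1 libraries. A T-bet vector effect that differs between WT and STAT4 KO cells counts there as spread. The members and gene lists were chosen with earlier results of these data known.

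The test was limma 3.58.1 in R 4.3.3 (eBayes with a trend) over 12 libraries, without WT Th1 replicate 2 and T-bet KO Th1, and over genes with at least 1 FPKM in 2 of them. For the STAT4 KO pair and for the difference between genotypes each Th1 library had its own term, so 2 residual degrees of freedom came from the Th2 libraries. For the T-bet term over both genotypes additive terms left 4. A Benjamini-Hochberg adjusted p under 0.05 was the threshold for a call. In simulated data (10775 genes, 100 changed by each of 1, 2 and 4 on the log2 scale) the pair test found 9, 84 and 92 with 9 unchanged genes called, the additive term 84, 98 and 99 with 14, and the difference between genotypes 0, 47 and 96 with 9. The simulated noise was normal, with the spread of the additive fit after limma had pulled it towards a common trend. These counts may thus exceed what the test finds in real libraries. In the real pair Nkg7, with a difference of 5.49, was not called.

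Named were the 15 highest and 15 lowest genes at 1 locus, with intervals apart and no small RNA, then Tbx21, Stat4, Ifng, Eomes, Gata3 and Il12rb2, and up to 5 genes per list. Other genes were named where a list or a count was described by its members. Scripts ran in Python 3.11.15 with pandas 2.3.3. Some named genes are not reported here.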

Additional observations from a re-analysis of the deposited data

How the results depend on the processing

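The 60 higher and 99 lower genes rested on 1 library a side, so no replicate could be left out there. Over 11 settings the higher count was 43 to 70 and the lower count 68 to 152, the latter with pseudocount 0.1. The 24 of 277 STAT4-dependent genes (8.66%) became 17 to 27 over 5 settings, with a share of 4.90% (27 of 551) against the mean of both WT Th1 replicates, 7.04% to 10% in 3 others, and 32.7% (17 of 52) among genes 4-fold lower. No difference of 106 named genes changed its sign past 2-fold.

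The count of 1 for the pair was 0 with pseudocount 0.1, with no filter on low values, with upper-quartile scaling and without a trend, and 0 to 6 with libraries left out. The count of 0 for the difference between genotypes was 1 with pseudocount 0.1 and 0 to 3 with libraries left out. The count of 1 over both genotypes was 0 with no filter on low values, with upper-quartile scaling and with 14 libraries and no batch term, 2 without a trend, 4 with the 4 Th1 vector libraries alone, and 0 to 2 with libraries left out. A library left out of the pair itself ends the comparison. The cause of these moves was not tested. No paired analysis was possible because each group of the fit holds 1 library and no number pairs them.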

Other observations

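Several of the genes with large differences were neighbours on the chromosome. Of the 43 genes that were 2-fold higher, at 1 locus and no small RNA, 14 had another such gene within 200 kb, and of the 89 lower genes 17 had one (mm9). How often equal numbers of genes drawn from all members have such neighbours was not counted, so these counts do not show clustering. Ccl5, Ccl9, Ccl3 and Ccl4 lay in 139 kb on chromosome 11, and the 4 were the only members in that span. Nkg7 and Cldnd2 lay within 6.18 kb on chromosome 7. The lower genes included Gbp4, Gbp8, Gbp9, Gbp10, Gbp11 and Abcg3 on chromosome 5, and Gm12250, Igtp and Irgm2 on chromosome 11. Gbp4, Igtp and Irgm2 are genes of the interferon response.

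Of the 159 genes past 2-fold, 25 were small RNA genes, 17 higher and 8 lower. None of the 25 had intervals apart, and 17 were listed at 0 in 1 of the 2 libraries. Their part in the larger small RNA share of the T-bet library was not tested.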
